A study of Mus musculus with 12 samples.

Results

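A set of 4 mature miRNAs best known from white blood cells was followed in small RNA counts of extracellular vesicles: mmu-miR-142a-5p, mmu-miR-142a-3p, mmu-miR-223-3p and mmu-miR-150-5p, written here without the species prefix. The vesicles came from mesenchymal stem cells of mouse bone marrow. The members were taken by name from the count table, as 4 of its 1978 annotated mouse miRNAs, and all 4 had counts. Vesicles are membrane particles that cells release with small RNA inside, and mesenchymal stem cells are the stromal precursors of bone, cartilage and fat. The libraries were labelled aFM, NY, PLL and DZ, with 3 libraries each called replicates A, B and C. Every library carried the same labels for origin (bone marrow of SPF-grade C57BL/6 mice) and for treatment (antigen intervention), DZ included. The series' design text describes cells exposed to hydatid preparations named ESPs, HCF or pLL at 2 µg/ml over 48 h, with vesicles collected by ultracentrifugation. The labels do not say which preparation a group received, apart from the shared name of PLL and pLL, and none names an unstimulated group. DZ therefore serves only as a common point of comparison. No label ties replicates to separate cultures or animals; p-values therefore measure only how far these libraries spread, and that spread may be technical.

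In mice and humans, miR-142 is made across the blood lineages from a single gene, and both arms of its hairpin can act as guides. miR-223 is the miRNA of neutrophils and other myeloid cells, where it tempers granulocyte production and activation. miR-150 rises as lymphocytes mature and restrains the transcription factor Myb. A miRNA recognises its targets mainly through its seed, bases 2 to 8 from the 5′ end. Mesenchymal stem cells are not of the blood lineages, and stromal cultures from bone marrow can hold some haematopoietic cells.

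The mature sequences below are shown because the seeds tell the members apart; they are RefSeq's on GRCm38.p6, written 5′ to 3′ with the seed in capitals. RefSeq's table held 3 of the 4 members, and miR-150-5p is named only.
miR-142a-5p: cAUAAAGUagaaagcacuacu
miR-142a-3p: uGUAGUGUuuccuacuuuaugga
miR-223-3p: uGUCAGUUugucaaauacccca
These 3 seeds differ from each other, and 0 other mouse miRNAs of the RefSeq table shared any of them. The miR-142a hairpin is printed next because the results turn on its 2 arms, which stand in capitals, the 5p arm first.
Mir142 hairpin: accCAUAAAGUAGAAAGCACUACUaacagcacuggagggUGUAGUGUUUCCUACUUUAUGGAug
The hairpin lies at chr11:87756864-87756927 on the plus strand, with the 5p arm at chr11:87756867-87756887 and the 3p arm at chr11:87756903-87756925. In the GENCODE M21 annotation of GRCm38 it sits inside Mir142hg, a long noncoding RNA gene of the same strand, and overlaps none of its exons. Mir142b is annotated on the opposite strand, and its mature product at chr11:87756906-87756925 lies within the span of the 3p arm; miR-142b had 0 counts in all 12 libraries. Mir223, at chrX:96242817-96242926 on the plus strand, lies in an exon of the noncoding gene F630028O10Rik (exon 3 of one transcript and exon 2 of another). Mir150, at chr7:45121757-45121821, overlapped no other annotated gene. The submitters' processing notes name mm39, so these GRCm38 positions describe the genes and were not used with any value.

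Annotated miRNAs made up 10.3% to 60.7% of a library's counts, or 17607 to 60436 counts, the rest being predicted loci with no miRNA name. The annotated share was 10.7% to 19.9% in aFM, 18.6% to 30.6% in NY, 29.2% to 60.7% in PLL and 10.3% to 21.6% in DZ. PLL replicate A stood apart from its group. In a chi-square comparison over miRNA counts it gave 87.3 and 99.2 per degree of freedom against the other PLL libraries, where the other 10 pairs of libraries within a group gave 6.27 to 29.1. Values without this library are given beside the members' main PLL results. Mesenchymal miRNAs (miR-143, miR-145a, miR-199, miR-214 and miR-140) were detected for 8 of 8 entries, summing to 153055, 58395 and 50364 CPM in PLL and 86922 to 102552 CPM in DZ. The high sum is that of PLL replicate A, where miR-140-3p alone held 99795 CPM, against 5400 and 5122 CPM in PLL replicates B and C. CPM here are counts per 1000000 of a library's annotated counts, scaled by its TMM factor.

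The 4 members together took 0.152% to 0.424% of annotated counts in a library. Of their 984 counts over all libraries, 866 (88.0%) were miR-142a-5p, 57 miR-223-3p, 38 miR-150-5p and 23 miR-142a-3p. Averaged over the libraries, miR-142a-5p ranked 48th of 501 detected miRNAs, miR-223-3p 161st, miR-150-5p 180th and miR-142a-3p 227th. Only miR-142a-5p was present in all 12 libraries and passed the filter on low counts, with 41 counts or more in each. The other 3 members were below that filter, which 132 miRNAs passed, and they were tested in a fit of all 501 detected miRNAs.

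**Figure D1:**
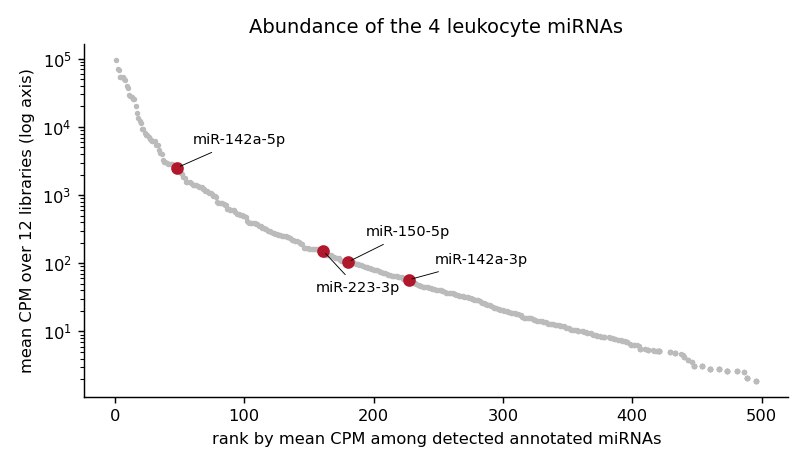
Mean CPM over the 12 libraries (log axis) against rank for the 501 detected miRNAs (grey), with the 4 leukocyte miRNAs in red. miR-142a-5p stands at rank 48, and the other 3 between ranks 161 and 227.

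miR-142a-5p, the 5p guide of the pan-leukocyte hairpin, was lower in aFM than in DZ, at 0.532 of its level. It stood at 1729, 1949 and 1481 CPM in aFM, 3282, 3041 and 2062 CPM in NY, 1857, 2964 and 2259 CPM in PLL, and 3536, 3186 and 2993 CPM in DZ (replicates A, B and C). All aFM libraries lay below all DZ and all NY libraries, and all PLL libraries lay below all DZ libraries, by 2964 against 2993 CPM at the nearest. The same held, in that order, for 15.9%, 24.2% and 10.6% of the 132 miRNAs that passed the filter. The means were 1719 ± 234 CPM in aFM, 2795 ± 646 in NY, 2360 ± 560 in PLL and 3239 ± 275 in DZ (SD, n = 3). Ordered by mean, DZ came before NY, NY before PLL and PLL before aFM, and each pair of neighbours in that order overlapped.

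In aFM against DZ the log2 fold change of miR-142a-5p was -0.91 ± 0.28 (SE; edgeR quasi-likelihood test, adjusted p = 0.0415), with every aFM library lower. In that comparison 18.9% of the 132 miRNAs tested were called and 9.85% were called lower in aFM; 15.9% had aFM libraries entirely below DZ. The median of all tested miRNAs was -0.14, and miR-142a-5p stood at -0.77 relative to it. That distance was -0.79 to -0.76 with any of the other scalings tried, including the one with predicted loci in the library sizes. A change of scaling shifts all miRNAs of a comparison by nearly the same amount, so this distance could hardly move and does not test the difference. The call itself was lost with RLE factors (adjusted p = 0.0535), unscaled library totals (0.127), all rows (0.12), no filter (0.445) and the replicate block (0.0597), and was kept with upper quartile factors (0.0417) and DESeq2 (0.0498). In bulk vesicle RNA, fewer vesicles from a cell type and less miRNA per vesicle cannot be told apart. The call was also lost without most single libraries: it held without PLL replicate A or B, and not without any of the other 10 libraries (adjusted p = 0.0636 to 0.156).

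**Figure D2:**
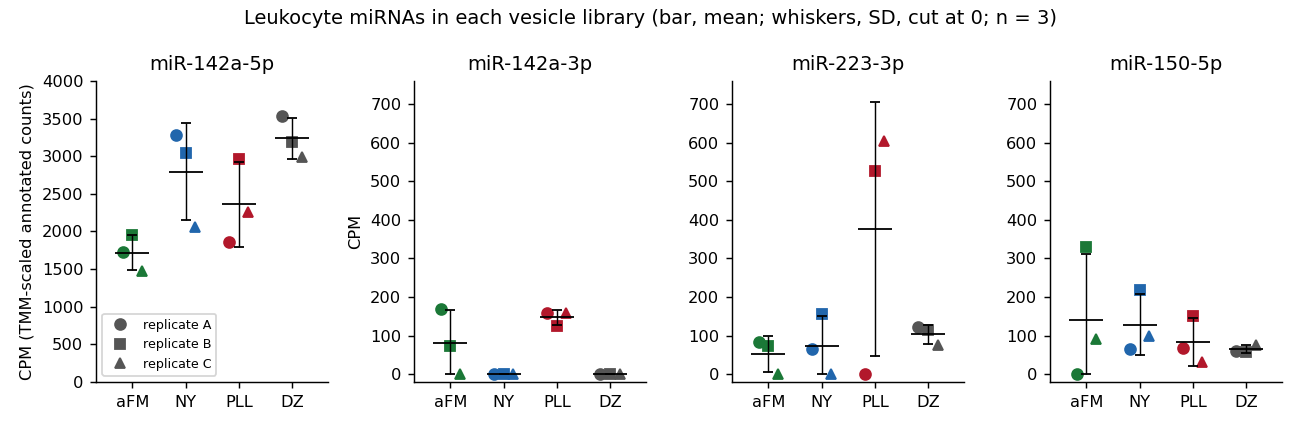
CPM of each member in each library, for aFM, NY, PLL and DZ; symbols mark replicates A, B and C, the bar the mean and the whiskers the SD (n = 3, cut at 0). The y axis of miR-142a-5p reaches higher than that of the other 3; its aFM libraries lie at 1481 to 1949 CPM and its DZ libraries at 2993 to 3536 CPM.

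Among red cell miRNAs, miR-486 was lower in aFM as well. miR-486a-5p, an erythroid miRNA whose reads were also counted under miR-486b-5p, stood at 34706, 37979 and 37107 CPM in aFM against 103162, 84952 and 43082 CPM in DZ (log2 fold change -1.07 ± 0.33, edgeR adjusted p = 0.0415). Of the 5 erythroid entries, all detected, 3 were tested and 2, the identical miR-486 entries, were called lower. miR-451a, processed without Dicer in red cell precursors, was not called (-0.30 ± 0.48, edgeR adjusted p = 0.826). The summed erythroid level, each measurement counted once, was 48016 to 81731 CPM in aFM and 61346 to 137122 CPM in DZ. The endothelial miR-126a-3p went the other way, at 4723, 5110 and 4593 CPM in aFM against 610, 1423 and 341 CPM in DZ (log2 fold change 2.63 ± 0.46, edgeR adjusted p = 0.0047); the summed level of its 2 arms was 4623 to 5147 CPM in aFM and 493 to 1423 CPM in DZ. The mesenchymal sum was 79010 to 94842 CPM in aFM and 86922 to 102552 CPM in DZ. Of its 8 tested entries 1 was called, miR-145a-5p (log2 fold change -4.03 ± 1.19, edgeR adjusted p = 0.0415), where 18.9% of the 132 miRNAs tested were called. That entry had few counts, 2, 0 and 0 in aFM and 2, 15 and 11 in DZ. The better counted miR-145a-3p (-0.86, edgeR adjusted p = 0.115) and miR-143-3p (-0.14, adjusted p = 0.741) were not called. Liver-type miRNAs (miR-122-5p, miR-192-5p and miR-194-5p, all detected) summed to 15532 to 19008 CPM in aFM and 4207 to 46455 CPM in DZ, with 0 of 2 tested entries called by edgeR, 0 at an unadjusted p under 0.05 and 0 by DESeq2. The high DZ sum was that of replicate C, where miR-122-5p stood at 38119 CPM, against 1890 and 4324 CPM in DZ replicates A and B. With all libraries the log2 fold change of miR-122-5p was -0.015 and that of miR-192-5p -0.63. Without DZ replicate C, left out after its values were seen, they were 2.26 ± 0.43 (edgeR adjusted p = 0.00881) and 0.49 (adjusted p = 0.561). The values that chose this library also enter these p-values, which therefore do not test the difference. The part of these lists in the miR-142a-5p difference was not tested.

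miR-142a-5p was not called in the other comparisons. Against DZ its log2 fold change was -0.21 ± 0.27 in NY (edgeR adjusted p = 0.95) and -0.45 ± 0.27 in PLL (adjusted p = 0.278), where 0.758% and 3.79% of the 132 miRNAs were called. The non-overlap of PLL below DZ was shared by 10.6% of tested miRNAs. NY against aFM gave 0.70 ± 0.27 (adjusted p = 0.126), with 3.79% called and 24.2% of miRNAs lying entirely above aFM in NY. PLL against aFM gave 0.46 ± 0.27 (adjusted p = 0.245, 9.09% called) and PLL against NY gave -0.24 ± 0.27 (adjusted p = 0.57, 6.82% called). Without PLL replicate A the PLL differences were -0.35 from DZ, 0.54 from aFM and -0.083 from NY (adjusted p = 0.525, 0.194 and 0.854). A joint test of any difference among the 4 groups gave adjusted p = 0.0988, where 12.1% of miRNAs were called. Comparisons that share DZ, or any other group, share its libraries.

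The scale moved the PLL comparisons most. With predicted loci in the filter and library sizes, the median log2 fold change of the annotated miRNAs was 1.66 for PLL over DZ, 2.13 for PLL over aFM and 1.48 for PLL over NY. miR-142a-5p then stood at 0.92, 2.24 and 0.91, and the PLL difference from aFM was called (edgeR adjusted p = 0.00556), as were 36.5% of the 853 rows tested there and, in the joint test, 52.9%. Relative to those medians it lay at -0.74, 0.11 and -0.57, where annotated counts alone gave -0.67, 0.15 and -0.42. Such distances change little with any scaling, as the median shifts with each miRNA.

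**Figure D3:**
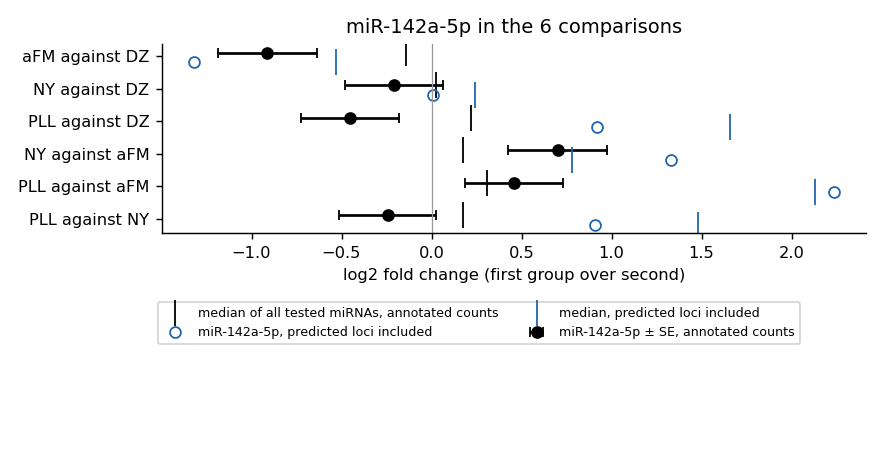
Log2 fold change of miR-142a-5p (first group over second) in 6 comparisons with annotated counts (black, ± SE) and with predicted loci included (open blue), each beside the median of the tested miRNAs (ticks). Including predicted loci shifts miR-142a-5p and the median together, most in the PLL comparisons.

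**Figure D4:**
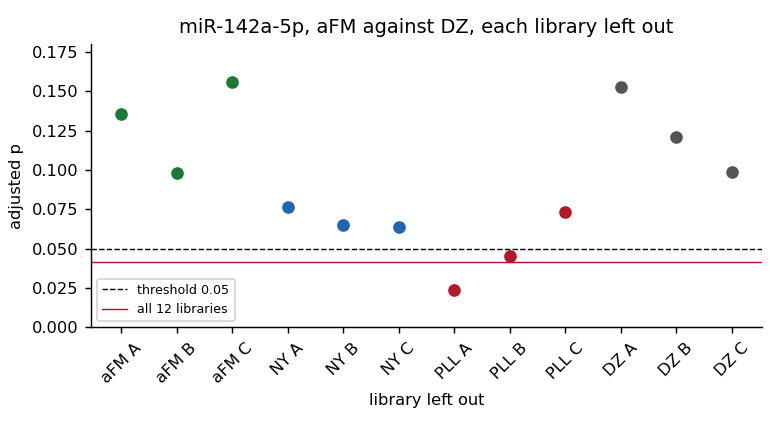
Adjusted p of miR-142a-5p in aFM against DZ (edgeR) after leaving out each library in turn; the dashed line is 0.05 and the red line the value with all 12 libraries. Only the fits without PLL replicate A or B lie below the dashed line.

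The other arm of the same hairpin was rare and unevenly distributed. miR-142a-3p had 4, 2 and 0 counts in aFM, 0 in every NY library, 7, 5 and 5 counts in PLL and 0 in every DZ library. It was thus present in all 3 PLL libraries and 2 of 3 aFM libraries, and in none of NY or DZ. In CPM it stood at 169, 73.5 and 0 in aFM and at 159, 126 and 159 in PLL. Its PLL libraries lay above all NY and all DZ libraries, as they did for 8.18% and 6.59% of the 501 detected miRNAs.

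Pooled over libraries, PLL had 17 counts of miR-142a-3p, or 147 CPM (exact 95% Poisson interval 85.8 to 236). Taking 3 counts over the group as the limit for a count of 0, NY allowed up to 32.4 CPM and DZ up to 49.7 CPM. Set against those limits, the pooled PLL level was at least 4.54-fold higher than NY and at least 2.96-fold higher than DZ, with PLL taken at its estimate. With the counting error of both groups, the exact 95% lower limits of the ratios were 3.31 over NY and 2.16 over DZ, and 2.91 and 1.90 without PLL replicate A. Without NY replicate B the bound over NY was 2.96, and without DZ replicate C that over DZ was 1.67; without PLL replicate A they were 4.33 and 2.82. PLL and aFM had a ratio of 2.06 (95% counting interval 0.776 to 6.39), which did not separate them; it was 4.44 without aFM replicate A and 1.25 without aFM replicate C. The levels of other cell types' miRNAs also differed between these groups: the mesenchymal miR-143-3p stood at 28940, 44254 and 37543 CPM in PLL against 87065, 80628 and 74835 CPM in DZ (log2 fold change -1.13 ± 0.17, edgeR adjusted p = 0.00202; -1.03 without PLL replicate A, adjusted p = 0.000879). The endothelial miR-126a-3p averaged 4809 ± 269 CPM in aFM, 575 ± 259 in NY, 1966 ± 300 in PLL and 791 ± 563 in DZ (SD, n = 3). Its means in aFM and PLL lay above those in NY and DZ, as did those of miR-142a-3p. The highest group differed, being aFM for miR-126a-3p and PLL for miR-142a-3p (mean 148 CPM, against 80.7 CPM in aFM). By edgeR miR-126a-3p was called lower in NY against aFM (-3.06 ± 0.46, adjusted p = 0.00346) and higher in PLL against NY (1.76 ± 0.45, adjusted p = 0.0356). Without PLL replicate A the latter was 1.87 (adjusted p = 0.0394). In PLL against DZ edgeR did not call miR-126a-3p (1.34 ± 0.46, adjusted p = 0.0927), nor without PLL replicate A (1.40, adjusted p = 0.188). DESeq2 with all libraries did, just under the threshold (1.29, adjusted p = 0.04999). Its other arm, miR-126a-5p, did not follow that order, with 3, 1 and 1 counts in aFM, 0 in every NY library, 0, 0 and 1 in PLL and 0, 0 and 4 in DZ. The erythroid sum was 48016 to 81731 CPM in aFM, 63486 to 129622 in NY, 46897, 67562 and 63441 in PLL and 61346 to 137122 in DZ. Within it, miR-144-3p had 1, 6 and 3 counts in aFM, 0 in every NY library, 3, 15 and 0 in PLL and 0, 1 and 0 in DZ. miR-144-5p had 1, 2 and 3 counts in aFM, 1 in each NY library, 2, 1 and 6 in PLL and 0 in every DZ library. The part of these cell types in the miR-142a-3p and miR-223-3p counts was not tested. For aFM, with 6 counts, the bound over DZ was 1.44, its exact lower limit 0.846, and the bound without DZ replicate C 0.809. Limits and intervals cover counting error only and pool the libraries of a group.

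The ratio of the arms, like that of any 2 rows within a library, does not depend on how libraries are scaled. The 3p arm made up 2.59% of the 889 miR-142a counts (exact Clopper-Pearson interval 1.65% to 3.86%). In aFM it was 8.89%, 3.64% and 0% by library, and 6 of 149 pooled counts (4.03%, 1.49% to 8.56%). NY had 0 of 259 counts, which allows a share of up to 1.16% at 3 counts (exact upper limit 1.41%). In PLL it was 7.87%, 4.07% and 6.58%, and 17 of 288 pooled counts (5.90%, 3.48% to 9.28%). DZ had 0 of 193 counts, which allows up to 1.55% at 3 counts (exact upper limit 1.89%). Every PLL library thus had some 3p reads and no NY or DZ library did, although the exact upper limits of single NY and DZ libraries, 3.66% to 6.38%, overlap the PLL intervals. The mean 5p share was 95.8% ± 4.47 in aFM, 100% in NY, 93.8% ± 1.93 in PLL and 100% in DZ (SD, n = 3). The difference of PLL from NY and that of PLL from DZ each had an exact two-sided permutation p = 0.1, the smallest that 3 against 3 allows, and adjusted p = 0.3 over 6 pairs. The other 4 pairs had exact permutation p of 0.4 to 1. Without PLL replicate A the mean 5p share in PLL was 94.7%, and the exact permutation p against NY and against DZ was 0.2 each, the smallest that 2 against 3 allows.

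**Figure D5:**
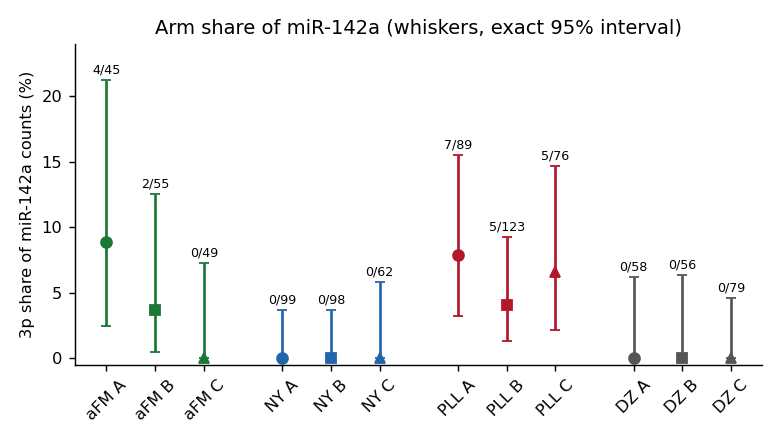
Percent of miR-142a counts on the 3p arm in each library, with 3p counts over both arms printed above the exact 95% interval. PLL libraries lie at 4.07% to 7.87%, aFM libraries at 0% to 8.89%, and all NY and DZ libraries at 0.

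miR-223-3p, the myeloid member, was most abundant in 2 of the 3 PLL libraries. It had 2, 2 and 0 counts in aFM, 2, 5 and 0 in NY, 0, 21 and 19 in PLL and 2, 2 and 2 in DZ. In CPM, PLL replicates B and C held 527 and 604, whereas PLL replicate A held 0, which at 3 counts allows up to 67.9 CPM. All other libraries lay between 0 and 155 CPM. By mean, PLL (377 ± 329 CPM) came before DZ (104 ± 24.6), NY (73.8 ± 77.9) and aFM (52.6 ± 45.9; SD, n = 3), and all neighbours overlapped.

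The pooled ratio of PLL (40 counts) to DZ (6 counts) was 3.49, with a 95% counting interval of 1.47 to 10.1, or 5.65 (2.38 to 16.3) without PLL replicate A. The ratio of PLL to aFM was 7.28 (2.63 to 28.0), or 11.8 without PLL replicate A and 4.41 without aFM replicate C. That of PLL to NY was 4.58 (2.03 to 12.1), or 7.42 without PLL replicate A and 10.4 without NY replicate B. These intervals hold counting error only and take no account of the empty PLL library. The minor arm, miR-223-5p, had 1, 0 and 0 counts in aFM, 6, 0 and 0 in NY, 5, 7 and 1 in PLL and 0 in all DZ libraries. PLL replicate A, which had no miR-223-3p, had 5 counts of this arm. Of the miR-223 counts in PLL, 75.5% were on the 3p arm (exact interval 61.7% to 86.2%).

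miR-150-5p, the lymphocyte member, showed no group difference that its counts could resolve. It had 0, 9 and 3 counts in aFM, 2, 7 and 3 in NY, 3, 6 and 1 in PLL and 1, 1 and 2 in DZ. Its highest libraries were replicate B of aFM (331 CPM), NY (217 CPM) and PLL (151 CPM), and all groups overlapped. The means were 141 ± 171 CPM in aFM, 128 ± 79.3 in NY, 83.5 ± 60.9 in PLL and 64.6 ± 9.94 in DZ (SD, n = 3). Pooled ratios to DZ were 2.16 in aFM (95% counting interval 0.653 to 9.17), 1.96 in NY (0.594 to 8.33) and 1.31 in PLL (0.377 to 5.71), all including 1; the aFM ratio was 0.797 without aFM replicate B and the PLL ratio 1.48 without PLL replicate A. The other arm, miR-150-3p, had 3 counts, all in PLL replicate B.

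In the fit of all 501 detected miRNAs, edgeR called 0 of 18 pairwise tests of miR-142a-3p, miR-223-3p and miR-150-5p. The share of all detected miRNAs called there was 2.99% in aFM against DZ, 1.4% in NY against DZ, 3.39% in PLL against DZ, 2.2% in NY against aFM, 2.99% in PLL against aFM and 3.19% in PLL against NY. Of these 18 tests 5 had an unadjusted p under 0.05. The share of all detected miRNAs under that limit was not counted, so the 5 cannot be read as an excess. The 5 tests were miR-142a-3p in PLL against DZ, PLL against NY and NY against aFM (adjusted p = 0.346, 0.188 and 0.414), and miR-223-3p in PLL against aFM and PLL against NY (adjusted p = 0.221 and 0.372). DESeq2 called 0 and had 1 unadjusted p under 0.05. In the joint test, miR-142a-3p had adjusted p = 0.183, miR-223-3p 0.254 and miR-150-5p 0.883, with 7.58% of miRNAs called. There 2 of these 3 had an unadjusted p under 0.05, again with no share of all miRNAs under that limit to set beside it. Without PLL replicate A, miR-223-3p reached adjusted p = 0.0806 in PLL against aFM and 0.0725 in the joint test. Without that library it also passed the filter, and the filtered edgeR fit did not call it either. There its adjusted p was 0.0578 in PLL against aFM, 0.105 in PLL against NY, 0.211 in PLL against DZ and 0.056 in the joint test. With predicted loci included, miR-142a-3p was called in PLL against DZ and NY (adjusted p = 0.0136 and 0.0132) and miR-223-3p in PLL against aFM (adjusted p = 0.0077), where 19.5%, 14.3% and 18.5% of the 2032 rows tested were called, in a fit scaled by all rows and without a filter. In the joint test of that fit edgeR also called miR-142a-3p and miR-223-3p (adjusted p = 0.00384 and 0.00705). The share of all rows called in that test was not counted, and with the filter it was 52.9% of 853 rows.

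Other miRNAs of white blood cells ranged from 0 counts to a mean of 1316 CPM over the 12 libraries (miR-146a-5p), against 2528 CPM for miR-142a-5p. Of 10 companions listed, 7 were detected; miR-146a-5p (rank 67), miR-181a-5p (rank 88) and miR-342-5p (rank 113) were present in all 12 libraries, while miR-142b, miR-511-3p and miR-147-3p were at 0 throughout. Their summed level was 1838 to 2508 CPM in aFM, 1738 to 2195 in NY, 2838 to 3659 in PLL and 1646 to 3983 in DZ. Of the 3 tested, miR-146a-5p, miR-342-5p and miR-181a-5p, edgeR called 1 lower and 0 higher in aFM against DZ, while DESeq2 called 1 lower and 1 higher. In the other 5 comparisons edgeR called 0 of 15 tests and DESeq2 called 1. With edgeR 3 of these 15 tests had an unadjusted p under 0.05. Neither the share of all tested miRNAs under that limit nor the share that DESeq2 called was counted. The DESeq2 calls therefore cannot be read as an excess. The median log2 fold change of the 3 was 0.33 in aFM against DZ, where all tested miRNAs had -0.14. That median was the value of miR-181a-5p (edgeR adjusted p = 0.814), with miR-146a-5p at -2.00 and miR-342-5p at 1.81, so it shows no shared shift. The one edgeR called was miR-146a-5p, which dampens inflammatory signalling, with 253, 368 and 967 CPM in aFM against 1158, 2902 and 2463 CPM in DZ (log2 fold change -2.00 ± 0.50, edgeR adjusted p = 0.0311). The one that DESeq2 also called, miR-342-5p, was higher in aFM, with 464, 699 and 604 CPM in aFM against 61.0, 285 and 152 CPM in DZ (DESeq2 log2 fold change 1.89, adjusted p = 0.0418; edgeR 1.81 ± 0.61, adjusted p = 0.0556). miR-342-3p had 0, 2 and 0 counts in aFM, 0, 0 and 3 in NY, 10, 2 and 11 in PLL and 0 in DZ. miR-155-5p, induced on leukocyte activation, had 0, 6 and 9 counts in aFM, 4, 8 and 1 in NY, 11, 9 and 3 in PLL and 0, 0 and 3 in DZ.

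The miRNAs whose profile over the 12 libraries was most like that of miR-142a-5p were miR-21a-5p, miR-22-3p and miR-92a-3p. Likeness was the root mean square difference of log2 CPM after centring each profile, 0.27, 0.28 and 0.29 for these against a median of 0.74 over all other tested miRNAs. miR-21a-5p, an abundant miRNA of many cell types, stood at 70872 ± 6641 CPM in aFM, 118734 ± 12214 in NY, 88551 ± 8551 in PLL and 106179 ± 16938 in DZ (SD, n = 3). miR-22-3p stood at 4755 ± 594 CPM in aFM, 8268 ± 635 in NY, 6522 ± 386 in PLL and 6941 ± 861 in DZ (SD, n = 3). miR-92a-3p, of the miR-17-92 cluster, stood at 9263 ± 2409 CPM in aFM, 14321 ± 5582 in NY, 10558 ± 2439 in PLL and 15600 ± 4458 in DZ (SD, n = 3). Profiles that vary little are alike on this measure: the SD of log2 CPM over libraries was 0.41 for miR-142a-5p, and 20 of the 132 miRNAs varied less.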

How the data were processed

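Raw counts were deposited, as whole numbers for each row and library, with no normalization visible in the values. Per the submitters' processing notes, FastQC, STAR, StringTie and DESeq2 and the build mm39 were used; versions and roles are not stated, and neither the miRNA caller nor the read filtering is. Of 3509 rows, 1978 carried mouse miRNA names, and 1531 predicted loci (39.3% to 89.7% of a library's counts) entered neither library sizes nor tests. Library totals were 68647 to 214303 counts.

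Tests used edgeR 4.0.16 and limma 3.58.1 in R 4.3.3: filterByExpr (minimum count 10, total 15), TMM factors, 1 quasi-likelihood fit of 12 libraries with a term per group, and Benjamini-Hochberg adjustment over all miRNAs tested, with a threshold of 0.05. Members below the filter were tested in the same fit without it. The SE was the log2 fold change divided by the square root of F. Arm shares used SciPy 1.17.1. Alternatives were other scalings, all rows, no filter, DESeq2 1.42.0, identical rows merged, only the 2 groups compared, the replicate letter as a block and each library left out. The tests were tried on simulated data first, with changes larger than that of miR-142a-5p and only in miRNAs with more counts than the members below the filter. That trial therefore does not show how well changes of the members' size or counts are found.

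Members and lists were chosen with earlier results of these data known. All members were named in every comparison, with list entries past the threshold in any comparison, the other arms, and the 3 profiles most like a tested member. miR-342-3p, miR-155-5p, miR-342-5p, miR-140-3p, miR-126a-5p, miR-144-3p and miR-144-5p were named after their values were seen. Within each group all pairs of libraries differed by more than sampling noise. Same-letter deviations from the group means correlated above 0.1 for all 3 letters only between NY and DZ (0.13 to 0.34), where the block changed no member's call; no label states a pairing.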

Additional observations from a re-analysis of the deposited data

How the results depend on the processing

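The call of miR-142a-5p in aFM against DZ (1 member called) depended on the settings. It held with upper quartile factors, DESeq2, only the 2 groups compared or identical rows merged. With RLE factors, library totals, all rows or no filter, 0 members were called (adjusted p = 0.0535, 0.127, 0.12 and 0.445), and leaving out single libraries gave 0 or 1. Its log2 fold change stayed between -1.32 and -0.81 under all of these, and its adjusted p between 0.0239 and 0.445. With the replicate block 0 members were called (log2 fold change -0.92, adjusted p = 0.0597); the letters of aFM and DZ did not pair by the correlation criterion, and the block changed no other member's call. With all rows and the filter, 1 member was called in PLL against aFM and 1 in the joint test (miR-142a-5p, adjusted p = 0.00556 and 0.0186), where 0 were called with the other settings listed here. With all rows and no filter, miR-142a-3p and miR-223-3p were called too, as given above. With all rows, miR-142a-5p turned positive in NY against DZ (0.0079), PLL against DZ (0.92) and PLL against NY (0.91), where the median of the annotated miRNAs stood higher too. Over the 16 alternatives for the arm share of miR-142a, the 5p share was 93.7% to 98.2% in aFM and 92.8% to 94.7% in PLL. It stayed at 100% in NY and DZ, which had 0 counts of the 3p arm and could not move. Most of these alternatives left out 1 of 3 libraries, which cannot shift a mean by 1 SD, so they do not show that the share was stable. Of 134 alternatives for count ratios, chosen after seeing the data, 14 moved beyond the counting interval or, for bounds, by over 1.5 times. Without DZ replicate C, chosen after seeing the data, the liver-type entries in aFM against DZ turned positive (miR-122-5p 2.26, miR-192-5p 0.49). With 38 counts or fewer in all libraries, miR-150-5p and miR-142a-3p cannot show small differences.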
